A study of Homo sapiens with 6 samples.

Results

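The cyclin, cyclin-dependent kinase (CDK) and cell division cycle (CDC) genes were described in Ago-RIP-seq libraries of MDA-MB-231 cells, an established human triple-negative breast cancer line. Members were the protein-coding genes whose symbol starts with CCN and a letter, CDK and a digit or CDC and a digit, and whose unstranded counts summed to at least 200 over the 4 mimic libraries. Of 92 genes with such a symbol, 84 passed this minimum and are the members described here, among 13078 genes that passed it and 60708 that were counted. The smallest member was CDK5RAP3 with 286 counts, and the gene just below the minimum was CDC42EP5 with 169. The other genes below it were CCNI2, CCNP, CDC14C, CDC20B, CDC42EP2, CDK11A and CDK3, with 7 to 88 counts. CDK11A is a near-identical copy of the member CDK11B, and read pairs that match both were not counted, so the value of CDK11B is uncertain. The symbol rule also takes in genes that share the name and not the cell cycle role, such as the effectors of the small GTPase CDC42 and the splicing factors CDC40 and CDC5L.

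All cells were MDA-MB-231 and were harvested 18 hours after transfection with 25 nM of oligonucleotide, either the mimic (a synthetic miR-99b-5p) or a scrambled sequence as control. RNA was taken from the AGO2 immunoprecipitate (AGO2-IP), the RNA pulled down with the Argonaute protein that carries microRNAs, and from the flow-through that the pull-down left behind. The mimic gave 2 AGO2-IP and 2 flow-through libraries, labelled as biological replicates 1 and 2, and the control gave 1 library of each fraction. Which fraction a control library holds was taken from its title alone, since the study's sample list gives both only as control, and all ratios that use a control library rest on those titles. No IgG pull-down was analysed here. Gene counts were 38022779 to 48544756 in the mimic libraries and 7772149 to 8076375 in the control libraries, in which 92.3% to 95.0% of read pairs fell on no single gene. In the control flow-through 43.4% of the gene counts fell on mitochondrially encoded genes, so control and mimic libraries differed in composition as well as in oligonucleotide, and these cannot be told apart. The mesenchymal genes VIM, CD44, AXL, CAV1 and MSN were present at 59.0 to 2729 CPM (counts scaled to a fixed total, here by library size alone) in each of the 6 libraries, while ESR1, PGR and CDH1 were at 0 to 3.96 CPM, ERBB2 at 37.7 to 172, GATA3 at 8.26 to 24.8 and EPCAM at 2.80 to 11.8. Of markers of other cell types, PTPRC, CD3E, PECAM1, VWF and DCN were at 0 to 8.47 CPM and COL1A1 at 4.63 to 44.1.

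Cyclins are the regulatory subunits of CDKs, and their rise and fall through the cell cycle sets which CDK is active. D-type cyclins with CDK4 and CDK6 act in G1, cyclin E with CDK2 at the entry into S phase, cyclin A in S and G2, and cyclin B with CDK1 in mitosis, while CDC25 phosphatases remove the inhibitory phosphates from CDKs and the anaphase-promoting complex marks cyclins for destruction. Other cyclins and CDKs serve transcription and splicing, and CDC42 is a GTPase of the actin cytoskeleton that carries the name from yeast genetics. A microRNA guides AGO2 to transcripts, mostly through pairing of its seed, bases 2 to 8, with sites in the 3′ UTR.

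The mature miR-99b-5p and sites in 4 members that pair with its seed are shown because these members hold a seed match of the transfected microRNA. The microRNA, from RefSeq (GRCh38.p14), is 22 bases long and is encoded on the plus strand at chr19:51692618-51692639. Capitals mark the seed in the microRNA and the bases that match it in the 3′ UTRs, which were taken from the Ensembl canonical transcripts of GENCODE 44 on GRCh38.
hsa-miR-99b-5p: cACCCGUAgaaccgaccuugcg
CDC25A: agttgctgtgtTACGGGTttgagttacat
CDC42: acggcatagggACGGGTgcagtaggaag
CDK6: cctagtagcaaACGGGTgtcttctgtgc
CDK5RAP2: gtgctccacaaACGGGTggtaaaaaggc
The CDC25A site, printed with its flanks, lies on the minus strand at chr3:48157402-48157430 in exon 15 of 15, in a 3′ UTR of 1799 bases. It matched 7 bases of the seed (TACGGGT), and CDC25A was the only one of the 84 members with a match of 7 bases or more, 1.19% against 2.22% of the 11728 protein-coding genes tested that have an annotated 3′ UTR. The other sites shown match 6 bases (ACGGGT). They lie at chr1:22099137-22099164 on the plus strand (CDC42), and on the minus strand at chr7:92608679-92608706 (CDK6) and chr9:120389028-120389055 (CDK5RAP2), each in the last exon of its gene. In all, 5 members had a match of at least 6 bases, 5.95% against 6.68% of those protein-coding genes. A match is a description of the letters, and pairing outside the seed and sites outside the 3′ UTR are not described here.

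Levels between genes were compared per kilobase of the canonical transcript (RPKM from TMM-normalised counts). CCND1, the D-type cyclin amplified in many breast cancers, had the highest mean level of the members over the 4 mimic libraries, at 275 ± 31.4 RPKM with AGO2 and 247 ± 54.8 in the mimic flow-through (mean ± SD, n = 2 each). CDC37, the kinase-specific co-chaperone of HSP90, followed at 176 ± 86.0 RPKM with AGO2 and 184 ± 73.2 left behind, a spread that overlaps that of CCND1. CCNA2, cyclin A2, came next over the 4 libraries, with 238 ± 36.0 RPKM in the AGO2-IP against 80.0 ± 14.2 in the flow-through. The fractions thus ordered the genes differently, since CCNI, cyclin I, reached 207 ± 55.8 RPKM in the flow-through, against 26.4 ± 6.59 in the AGO2-IP. CCNB3 had the lowest level, at 0.787 ± 0.304 RPKM in the AGO2-IP against 0.384 ± 0.0877 in the flow-through.

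The first comparison asks which members were relatively more or less abundant with AGO2 than in the RNA left behind, in mimic-transfected cells. Values from here on are TMM-normalised CPM, which are shares of a library, and in bulk lysates fewer cells of a kind and less RNA per cell cannot be told apart. Calls needed a log2 fold change past 1 or -1 together with an adjusted p no higher than 0.05, from the quasi-likelihood test of edgeR, Benjamini-Hochberg adjusted over the 13078 genes. No member was called, against 0.658% of all genes tested (86 of 13078). At an unadjusted p under 0.05 there were 21 members and 3107 genes. Counts were also simulated with the common spread of these libraries, a biological coefficient of variation of 0.527, given to every gene. There this test called 10% of the genes changed by 2 on the log2 scale and 89% of those changed by 4. The simulation left out gene-specific spread, the pairing and the GC trend described below, so these shares are a rough guide. The median log2 fold change of the members was 0.38, and that of all genes was -0.11. Both AGO2-IP libraries lay above both flow-through libraries for 31 members (36.9%, against 28.1% of all genes), and below them for 16 members (19.0%, against 28.5%). The replicate numbers of the labels pair the fractions. With the replicate as a block, 5 members were called higher in the AGO2-IP (5.95%, against 4.6% of all genes), namely CCNE1, CCNT2, CDC26, CDC37L1 and CDC42SE2. Another 5 were called lower (5.95%, against 5.08%), namely CCNI, CCNO, CDC42EP1, CDK2AP2 and CDK5. In each of these 5 the SE was larger with the block (0.74 to 0.78) than without it (0.63 to 0.77). Their lower p-values with the block thus do not come from a smaller SE.

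**Figure D1:**
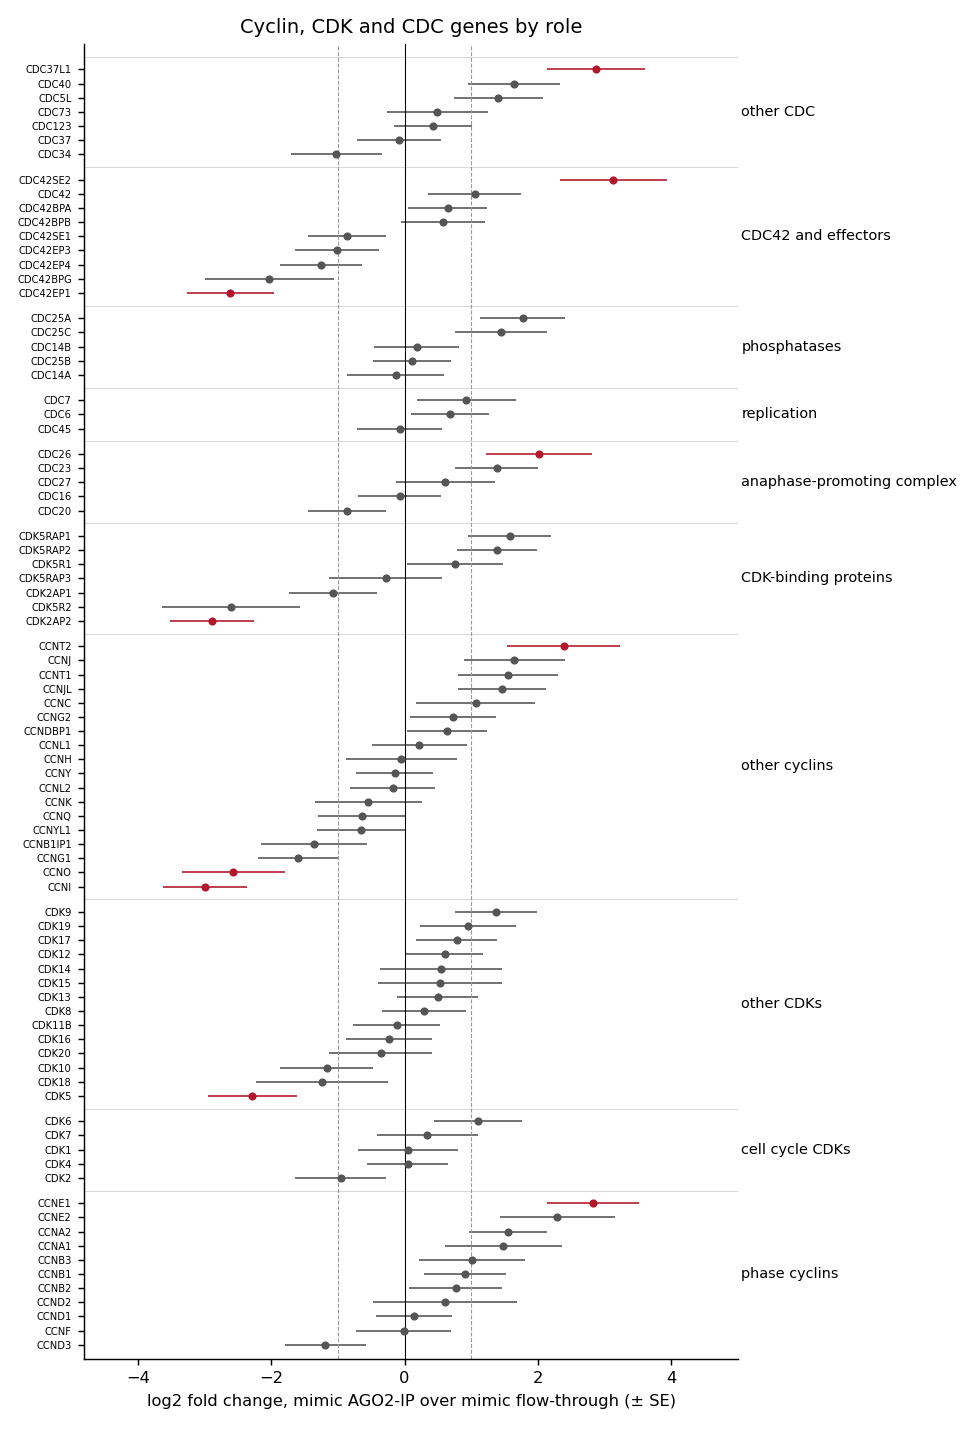
Log2 fold change of each of the 84 members, mimic AGO2-IP over mimic flow-through (2 libraries each), with the standard error as a bar, grouped by role. Red marks the 10 members called with the replicate block, and dashed lines mark -1 and 1. Above 0 lie 9 of the 11 phase cyclins and 50 of the 84 members, while effectors of CDC42 lie on both sides.

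Among the phase cyclins, those of the E and A types had the largest log2 fold changes. CCNE1, cyclin E1, stood at 48.9 and 117 CPM in the mimic AGO2-IP libraries, against 10.9 and 12.2 in the flow-through libraries. The fractions did not overlap, and the AGO2-IP libraries differed more from each other than the flow-through libraries did. The log2 fold change was 2.82 ± 0.69 (SE), with an adjusted p of 0.0671, and it was 0.0127 with the replicate block. CCNE2, cyclin E2, was at 14.3 and 52.5 CPM in the AGO2-IP, against 10.5 and 2.98 in the flow-through. Its libraries came close to each other in replicate 1, and the log2 fold change of 2.29 ± 0.87 had an adjusted p of 0.151. CCNA2 was at 584 and 723 CPM in the AGO2-IP, against 192 and 247 in the flow-through, with replicates close to each other in both fractions and a log2 fold change of 1.56 ± 0.58 (adjusted p 0.149). CCNB1, cyclin B1, was at 317 and 350 CPM against 243 and 110, with a log2 fold change of 0.90 ± 0.62 (adjusted p 0.384) that was 1.58 without flow-through replicate 1 and 0.44 without flow-through replicate 2. CCND3 was on the other side, with 111 and 153 CPM in the AGO2-IP below 228 and 366 in the flow-through (log2 fold change -1.19 ± 0.60, adjusted p 0.251). CCND1, at 1261 and 1073 CPM against 882 and 1210, overlapped between fractions (0.14 ± 0.57, adjusted p 0.899), and its sign turned without flow-through replicate 1 (-0.07). With the GC trend described below removed, the log2 fold change was 0.77 for CCNA2, 0.35 for CCNB1 and -0.22 for CCND3. Without AGO2-IP replicate 2 that of CCNE2 was 1.04, and without flow-through replicate 1 it was 3.46. In this group 9 members had a positive log2 fold change and 2 a negative one, with a median of 0.90. Of all 84 members 50 were positive, as were 6142 of the 13078 genes tested. The positive sign of CCND2 also turned, to -1.11 without AGO2-IP replicate 1.

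None of the 5 kinases of the cell cycle proper was called, and their fractions overlapped in all but CDK2. CDK1, the kinase of mitosis, had 86.7 and 81.8 CPM in the AGO2-IP, against 135 and 26.2 in the flow-through. Its AGO2-IP libraries were alike and lay between the flow-through libraries, which were 2.35 apart on the log2 scale, and the log2 fold change of 0.05 ± 0.75 (adjusted p 0.971) turned to -0.70 without flow-through replicate 2 and to -0.09 on library size alone. CDK2 had 18.8 and 13.6 CPM below 43.0 and 19.3 (log2 fold change -0.96 ± 0.68, adjusted p 0.405). CDK4 had 48.6 and 90.5 CPM against 68.2 and 64.9, which overlap (0.05 ± 0.61, adjusted p 0.968). CDK6, the partner of D-type cyclins that has a 6-base match, had 206 and 475 CPM against 211 and 104 (1.10 ± 0.66, adjusted p 0.326), and its log2 fold change was 0.38 with the GC trend removed and 0.35 to 1.69 with 1 library left out. That of CDK2 was -0.28 without flow-through replicate 1. CDK2 and CDK4 overlap genes on the opposite strand, where unstranded counting drops read pairs, and their summed stranded counts were 2.24 and 2.08 times the unstranded ones. On the strand columns CDK4 had a log2 fold change of -1.03 and -0.87 and CDK2 one of -0.93 and -1.03, so that the sign of CDK4 turned. Of the 84 members, 7 had stranded sums over 1.5 times the unstranded ones, namely CCNC, CCNE2, CCNH, CCNK, CDC14B, CDK2 and CDK4, and 79 had the same sign in both strand columns as in the unstranded counts.

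The members that regulate the CDKs and the cyclins were on both sides. CDC25A, the phosphatase that activates CDK2 and the only member with a 7-base seed match, had 108 and 183 CPM in the mimic AGO2-IP, against 31.9 and 52.3 in the flow-through. The fractions did not overlap, and the log2 fold change was 1.77 ± 0.63 with an adjusted p of 0.138. CDC25A was among the calls once the trend on GC content described below was removed (adjusted p 0.0482) and with PyDESeq2 (0.0473), and not with the replicate block (0.0973). CDC26, a small subunit of the anaphase-promoting complex, had 44.6 and 25.2 CPM against 13.6 and 3.51 (2.02 ± 0.79, adjusted p 0.161, and 0.042 with the block). CDC20, the activator of that complex, lay on the other side, with 138 and 147 CPM against 296 and 215 (-0.86 ± 0.58, adjusted p 0.379). CDC6, which loads the replicative helicase, had 119 and 105 CPM against 62.4 and 76.3 (0.68 ± 0.58, adjusted p 0.49). CDK5R2, an activator of CDK5 best known from neurons, had 0.713 and 1.46 CPM against 1.49 and 11.5. Its replicate 1 libraries were close, and the log2 fold change of -2.60 ± 1.03 rested on the flow-through of replicate 2, without which it was -0.47. With the GC trend removed the log2 fold change was -0.31 for CDC20, 0.19 for CDC6 and -0.69 for CDK5R2. CDK2AP2, which binds CDK2, had 10.1 and 12.2 CPM in the AGO2-IP, well below 77.5 and 86.1 in the flow-through (-2.89 ± 0.63, adjusted p 0.0575, and 0.00682 with the block), and its log2 fold change was -1.90 with the GC trend removed.

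In the fit of all 4 mimic libraries with neither block nor GC correction, members outside the core cycle held the extremes in both directions. CDC42SE2, a small effector of CDC42, had 261 and 398 CPM in the mimic AGO2-IP, against 62.0 and 12.5 in the flow-through, the largest log2 fold change of the 84 in that fit (3.13 ± 0.81, adjusted p 0.0748, and 0.00181 with the block). CDC37L1, a relative of CDC37, had 42.3 and 22.4 CPM against 5.47 and 3.27 (2.87 ± 0.73, adjusted p 0.0736, and 0.00832 with the block). CCNT2, a cyclin partner of CDK9 in transcription elongation, had 34.7 and 71.4 CPM against 16.9 and 3.24 (2.38 ± 0.84, adjusted p 0.134, and 0.0289 with the block). In each of these the fractions did not overlap, and replicate 2 of the flow-through lay below replicate 1 by 2.29 for CDC42SE2 and by 2.35 for CCNT2 on the log2 scale. Further members with non-overlapping fractions were CCNJ (1.65), CDC40, a splicing factor (1.64), and CDK5RAP1, an enzyme that modifies mitochondrial tRNA (1.58), with adjusted p-values of 0.163 to 0.215. Without flow-through replicate 1 the log2 fold change was 4.01 for CCNT2, 2.92 for CCNJ and 4.69 for CDC42SE2, and without flow-through replicate 2 it was 0.97 for CCNJ. The order at this end changed with the processing. CCNE1 exceeded CDC42SE2 with the GC trend removed (2.996 against 2.63) and without flow-through replicate 2 (2.91 against 2.40), and CDC37L1 exceeded it without AGO2-IP replicate 2 (3.23 against 2.77). With the GC trend removed CDC40 had a log2 fold change of 0.91 and CDC37L1 one of 1.97.

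At the other end CCNI had 59.9 and 85.6 CPM in the AGO2-IP, against 681 and 464 in the flow-through, the smallest log2 fold change of the 84 in that fit (-2.99 ± 0.63, adjusted p 0.0543, and 0.00319 with the block). The fractions were several-fold apart in both replicates. CCNI was also called with a bias-adjusted version of the quasi-likelihood test (adjusted p 0.0458), an alternative chosen after seeing the data, which called no other member lower, against 0.734% of all genes. Without flow-through replicate 1 the smallest value was that of CDK5R2 (-3.43 against -2.69 for CCNI). CDC42EP1, an effector of CDC42, had 35.3 and 42.9 CPM against 159 and 314 (-2.61 ± 0.65, adjusted p 0.0705, and 0.0164 with the block), and its relative CDC42EP4 had 58.2 and 33.4 against 95.5 and 121 (-1.26 ± 0.61, adjusted p 0.236). CDK5, a kinase best known for its role in neurons, had 7.74 and 7.02 CPM against 29.7 and 41.4 (-2.28 ± 0.67, adjusted p 0.0938, and 0.0396 with the block). The fractions of these members did not overlap. CCNO, a cyclin of multiciliated cells, had 3.30 and 2.74 CPM against 10.7 and 24.7 (-2.57 ± 0.77, adjusted p 0.0987, and 0.0271 with the block). CCNG1, a cyclin induced by p53, had 23.6 and 28.4 CPM against 87.0 and 68.6 (-1.59 ± 0.60, adjusted p 0.151), and CDK10 had 18.7 and 13.3 against 20.2 and 50.7 (-1.17 ± 0.70, adjusted p 0.321). CDK10 came close in replicate 1 and its log2 fold change was 0.01 once the GC trend was removed. The GC correction also moved CDC42EP1 to -1.22, CCNO to -1.23, CDC42EP4 to -0.48 and CCNG1 to -2.57 on the log2 scale.

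**Figure D2:**
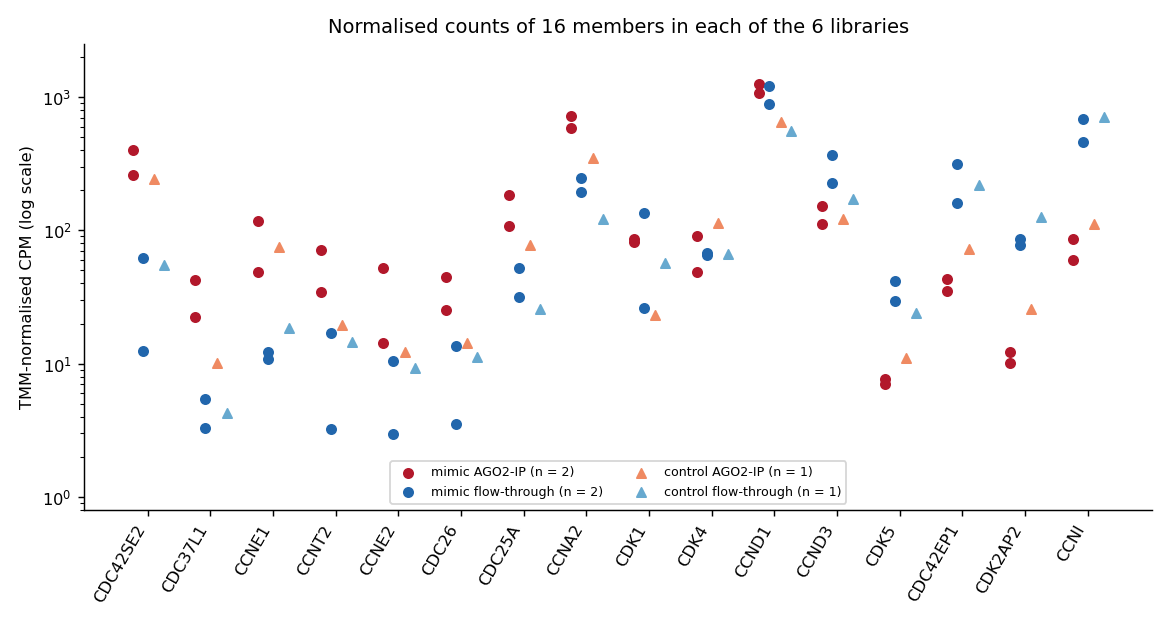
TMM-normalised CPM (log axis) of 16 members in each of the 6 libraries, as circles for mimic and triangles for control. The members run from CDC42SE2, the largest mimic log2 fold change, to CCNI, the smallest, except that CCND1 (0.14) stands after CDK1 (0.05) and CDK4 (0.05). The red and blue circles do not overlap for 13 of them, and overlap for CDK1, CDK4 and CCND1.

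PyDESeq2 called 6 members higher (7.14%, against 6.45% of all genes) and 6 lower (7.14%, against 8.26%). Of these 12, 9 were also called with the replicate block. PyDESeq2 called CCNE2, CDC25A and CDK5R2, which the block did not, and the block called CDC26, which PyDESeq2 did not. Leaving out the flow-through of replicate 1 raised the calls to 23 members higher (27.4%, against 18.8% of all genes) and 12 lower (14.3%, against 18.5%), in a fit that takes the lone flow-through library to vary like the AGO2-IP libraries. Leaving out the flow-through of replicate 2 gave 3 higher (3.57%, against 2.89%) and 6 lower (7.14%, against 4.21%). All 10 members called with the block were among the calls without the flow-through of replicate 1. Over the fits that left out 1 library, 38 members stayed positive, 18 stayed negative and 28 took both signs. This tally was made for the members alone, so it does not set them apart from other genes.

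The 2 flow-through libraries differed by over 4-fold for 14 members, and the 2 AGO2-IP libraries for 4. Across the 84 members the log2 of flow-through replicate 2 over replicate 1 had an SD of 1.38, against 0.83 for the AGO2-IP libraries, and it followed the GC content of the canonical transcript with a Spearman's rho of 0.765, a description over genes that share the same libraries. The same rho for the AGO2-IP libraries was -0.001. The members were not alone in this, since over 11747 protein-coding genes rho was 0.755 in the flow-through against 0.006 in the AGO2-IP, and the SD over all genes was 1.44 against 0.84. CCNC, a cyclin of the Mediator kinase module with 35.9% GC, had 29.2 and 3.05 CPM in the flow-through libraries, and CDC42BPG, a CDC42-binding kinase with 62.8% GC, had 2.88 and 26.4. Replicate 2 over replicate 1 was thus -3.23 for CCNC and 3.19 for CDC42BPG on the log2 scale, while their AGO2-IP libraries were at 36.5 and 31.7 CPM and at 3.38 and 3.89 CPM. The mimic log2 fold change of the members also followed GC content (rho -0.56), with a median of 0.84 in the 28 members of lowest GC (34.3% to 42.8%), 0.55 in the middle 28 and -0.45 in the 28 of highest GC (51.7% to 66.3%). After each library's trend on GC was removed, rho was -0.10 and those medians were 0.24, 0.18 and 0.23. The calls were then CCNE1, CDC25A and CDC42SE2 as higher (3.57%, against 3.32% of all genes) and CCNG1 and CCNI as lower (2.38%, against 2.36%). Together with the replicate block the GC correction called 14 members higher (16.7%, against 14% of all genes) and 9 lower (10.7%, against 12.7%).

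**Figure D3:**
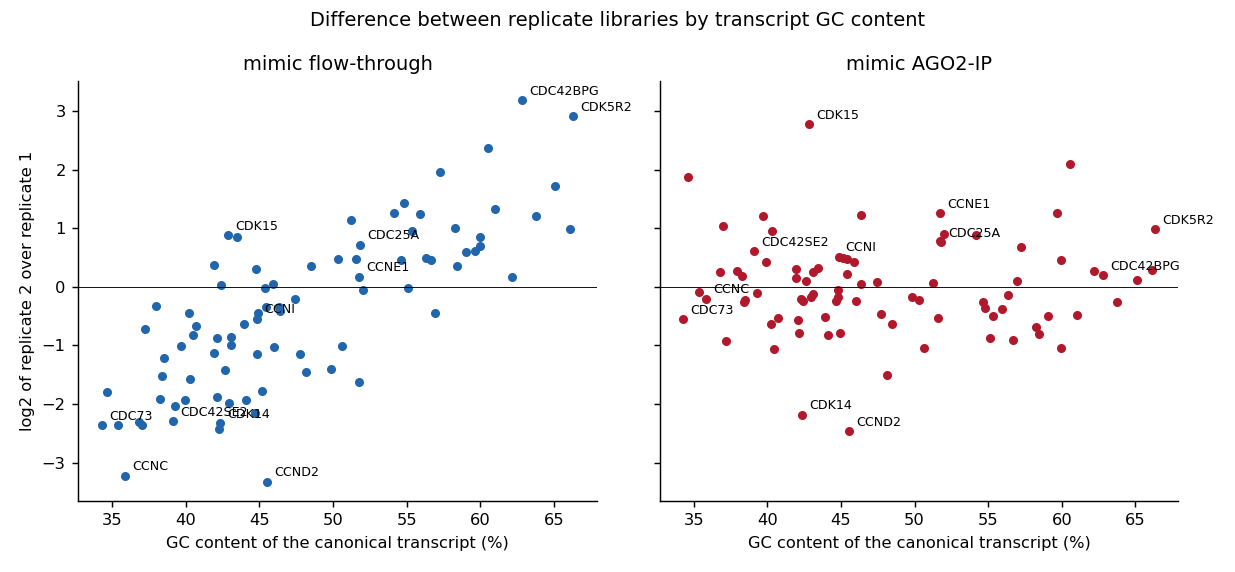
Log2 of replicate 2 over replicate 1 against the GC content of the canonical transcript (in %) for the 84 members, in mimic flow-through (left) and mimic AGO2-IP (right); each point is 1 gene. In the flow-through the points climb from left to right, with CCNC and CCND2 below -3 and CDC42BPG above 3, and in the AGO2-IP they lie around 0 at all GC contents.

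The control pair asks whether the fractions already separated these genes without the mimic, and with 1 library of each fraction it has no replicate check and no test. It covered 65 members, since 19 had too few counts. In log2 terms, control AGO2-IP over control flow-through was at least 1 for 12 members (18.5%, against 15.9% of all genes), and at most -1 for 15 (23.1%, against 18.1%). With library size alone in place of TMM these counts were 28 and 2, with no share of all genes tallied beside them. The median of all genes then moved from 0.01 to 0.91 and that of the members from -0.16 to 0.74, so the sign of a small ratio depends on the scaling and the place of the members below the median gene does not. Several members at the extremes of the mimic comparison stood on the same side in the control. CDC42SE2 had 241 CPM in the control AGO2-IP and 54.8 in the control flow-through (log2 ratio 1.92), CCNE1 had 75.6 and 18.4 (1.81), CCNA2 had 348 and 122 (1.29), and CDC25A had 77.0 and 25.6 (1.36). CCNI had 112 CPM in the control AGO2-IP and 709 in the control flow-through (-2.87), CDK2AP2 had 25.8 and 126 (-2.49), and CDC42EP1 had 72.8 and 220 (-1.81). These 7 members kept their sign with library size alone. They are examples: with TMM scaling, mimic and control had opposite signs for 21 of the 65 members (32.3%, against 31.2% of 8225 genes). A shared sign thus does not set the members apart from other genes. CCNT2 and CDC26 were near even in the control (0.21 and 0.13), although their ratios were 1.10 and 1.01 with library size alone. Chosen after their values were seen, CDK5R1, an activator of CDK5, stood at 1.63 and CCNF, a cyclin that serves as a ubiquitin ligase subunit, at 1.39, and CDK2AP1 at -1.87 and CDC73, of the PAF1 transcription complex, at -1.71.

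**Figure D4:**
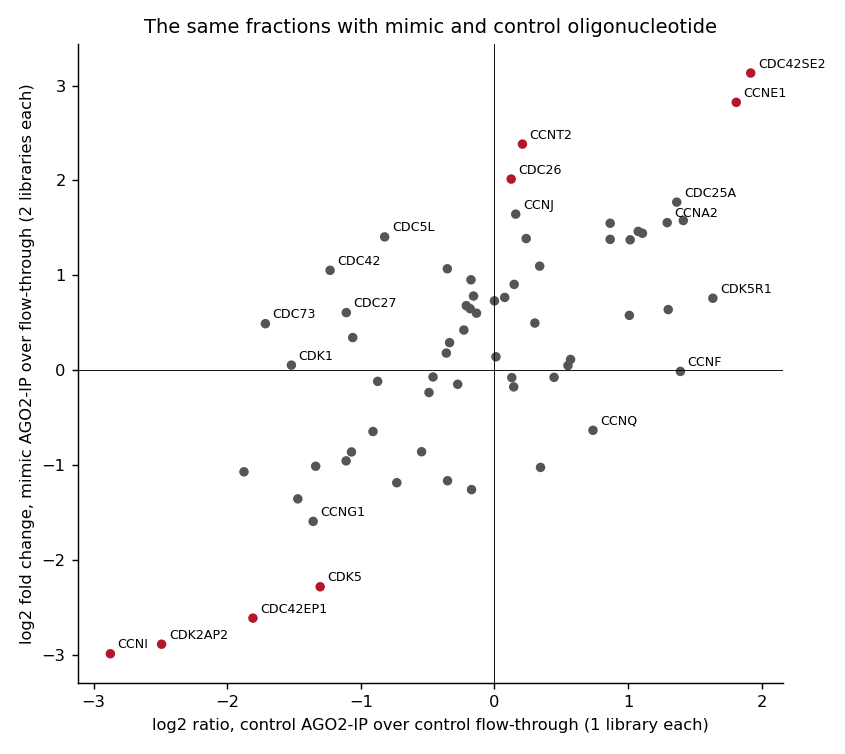
Log2 fold change of mimic AGO2-IP over mimic flow-through (2 libraries each) against the log2 ratio of the same fractions in the control (1 library each) for the 65 members with both values; red marks members called with the replicate block. CCNI and CDK2AP2 lie at the lower left and CDC42SE2 and CCNE1 at the upper right, and CDC5L, CDC42, CDC27 and CDC73 lie above 0 in the mimic and below 0 in the control.

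The difference between the mimic and the control ratio was tested as an interaction over all 6 libraries, in a fit that assumes the lone control libraries to vary like the mimic libraries. No member and no gene was called (0% of the 13319 tested with the quasi-likelihood test of edgeR, at a Benjamini-Hochberg adjusted p of 0.05). At an unadjusted p under 0.05 there were 0 members and 82 genes, and the bias-adjusted test likewise called 0. For CDC25A the interaction was 0.20 on the log2 scale, for CCNE1 0.80, for CCNA2 0.06 and for CCNI -0.32. With TMM scaling, the log2 values of mimic and control had opposite signs for 21 of the 65 members (32.3%, against 31.2% of 8225 genes). For 10 of them the mimic fractions also did not overlap (15.4%, against 11.6% of those genes). CDC42 was among them, with 638 and 432 CPM in the mimic AGO2-IP above 403 and 109 in its flow-through (log2 fold change 1.05 ± 0.70, adjusted p 0.37), and with 140 CPM in the control AGO2-IP below 284 in the control flow-through (-1.23). Its mimic log2 fold change was 0.60 with the GC trend removed, 2.28 without flow-through replicate 1 and 0.39 without flow-through replicate 2.

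The mimic and control libraries of the same fraction were compared last, to see which members differed with the oligonucleotide; this too rests on 1 control library. In the AGO2-IP the mean log2 ratio of mimic over control was 1 or more for 21 of 82 members (25.6%, against 17.3% of all genes) and -1 or less for 5 (6.10%, against 17.4%). With the GC trend removed fewer members were at 1 or more, as the closing section gives. The share of all genes was not tallied in that setting, so whether the members exceeded all genes there is not known. Both mimic libraries were past 1 for 12 members (14.6%, against 12.2%) and past -1 for 2 (2.44%, against 12.2%). Among the members past 1 in both mimic libraries the ratio was largest for CDC5L, a spliceosome component, with 145 and 121 CPM in the mimic AGO2-IP over 13.7 in the control AGO2-IP (log2 ratio 3.19). CDC40 followed with 41.1 and 35.2 against a control value of 6.004 (2.57), then CDC42 at 1.82, CDK1 with 86.7 and 81.8 against 23.1 (1.78) and CDC73 with 80.0 and 54.3 against 19.8 (1.65). Lying past 1 in both mimic AGO2-IP libraries was the rule by which these 5 genes were picked. Their ratios were 1.51 to 3.04 with library size alone. With the GC trend removed their ratios were 0.60 (CDC73) to 2.37 (CDC5L). CCND2 had a mean ratio of 1.69 and was left out of this order, since its mimic libraries, at 17.0 and 3.03 CPM against 2.07, were not both past 1. CDK2AP2 (-1.29) and CDC42BPG (-1.24) were lower in both mimic libraries, at -0.43 and -0.36 with the GC trend removed. CDC25A had a ratio of 0.78 in the AGO2-IP, against 0.64 in the flow-through. On library size alone the median AGO2-IP ratio of all genes moved from 0.02 to -0.12 and that of the members from 0.38 to 0.24. In the 6-library edgeR fit no member passed an adjusted p of 0.05 in either fraction, the lowest being 0.533 for the AGO2-IP, and an unadjusted p under 0.05 was found for 3 members in the AGO2-IP fraction and 0 members in the other.

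In the flow-through the same mean log2 ratio was 1 or more for 6 of 82 members (7.32%, against 10% of all genes) and -1 or less for 4 (4.88%, against 10.2%). These counts depend on flow-through replicate 1 and on the scaling. Library size alone moved the median of all genes from 0.05 to 0.52 and that of the members from 0.22 to 0.68. CDC5L, at 73.9 and 25.6 CPM against 21.0, had a ratio of 1.02, and CDC20, at 296 and 215 against 119, had one of 1.05. CDC42 had 403 and 109 CPM in the mimic flow-through, on both sides of 284 in the control, and CDK1 had 135 and 26.2, on both sides of 57.4. The mimic libraries of CDC42 and CDK1 thus disagreed on the direction in the flow-through. These genes were picked for being past 1 in both mimic AGO2-IP libraries, so the fractions cannot be compared on this point.

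**Figure D5:**
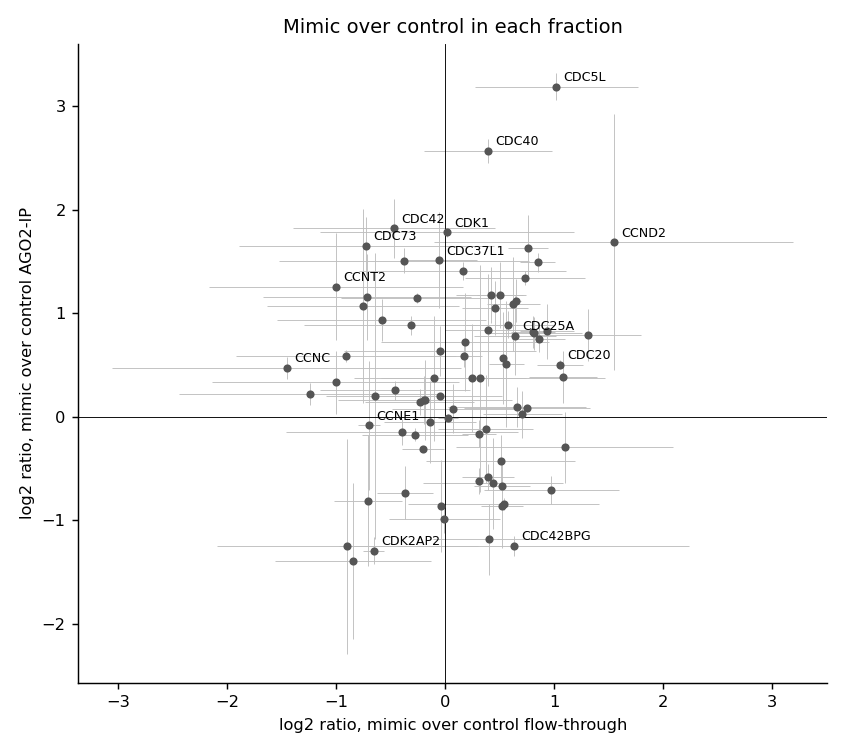
Log2 ratio of mimic over control in the AGO2-IP against the same ratio in the flow-through for the members with both values; points use the mean of the 2 mimic libraries, bars span the 2 mimic libraries, and each ratio rests on 1 control library. CDC5L and CDC40 lie highest, at 3.19 and 2.57 in the AGO2-IP, and the horizontal bars are long because the flow-through libraries differed.

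Other genes of the pathway (CDK inhibitors, RB and E2F, ubiquitin ligase subunits, replication licensing, mitotic kinases and partners of transcriptional CDKs) were listed beside the members, and 72 of 74 were tested. None was called in the mimic comparison without the block, and their median log2 fold change was 0.41. With the replicate block 6 were called higher in the AGO2-IP (8.33%, against 4.6% of all genes) and 1 lower (1.39%, against 5.08%). The former were CDKN1B, the CDK inhibitor p27, with a log2 fold change of 3.14 ± 0.62 without the block and a control ratio of 3.05; WEE1, the kinase that inhibits CDK1 (3.05 ± 0.63, control 2.86); MCM6, a subunit of the replicative helicase (3.23 ± 0.69, control 2.02); and ANAPC4, E2F6 and MAD2L1. The gene called lower was CDT1, a licensing factor (-2.71 ± 0.71, control -1.26). The control ratio was also positive for ANAPC4 (0.99), E2F6 (1.56) and MAD2L1 (1.09). It had the sign of the mimic value in each of these called genes. Of all 8225 genes with both values, 31.2% had opposite signs.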

How the data were processed

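Ago-RIP-seq counts of 6 libraries were used. The authors ran FastQC 0.11.9 on the read pairs, trimmed them with cutadapt 3.5 and aligned them to GRCh38 with STAR 2.7.11b (versions from the submitters' processing notes), and deposited the counts of read pairs per gene, unnormalised. Column 2 (unstranded) was used, since column 3 held 49.0% to 55.1% of the stranded counts. Rows that name no gene, 21.4% to 95.0% of the read pairs of a library, were left out. STAR counts uniquely mapped pairs on 1 gene, which lowers genes with near-identical copies or overlapping genes. GENCODE 44 named 60463 of 60708 identifiers; the annotation release the authors used is not given in the sources used here.

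Genes whose counts summed to 200 or more were fitted with edgeR 4.0.16 (R 4.3.3; TMM, glmQLFit, glmQLFTest, Benjamini-Hochberg adjustment). The SE is the log2 fold change divided by the square root of F. Ratios against 1 control library used a prior count of 2 and no test. Each comparison has its own TMM factors, and printed CPM use those over all 6 libraries. The fractions are paired by the replicate numbers of the labels, and libraries with one number deviated together from their groups (Pearson's r 0.324 over 13078 genes). The p-values measure only the spread between these samples, and with the replicate block that spread is pooled across genes rather than each gene's own. Alternatives were PyDESeq2 0.5.4, DESeq2 1.42.0 size factors, library size alone, count minimums of 50 and 1000, strand columns 3 and 4, a prior count of 0.5, protein-coding genes only, the replicate block, a GC trend removed (lowess span 0.2), 1 fit of all libraries, and each library left out. The edgeR and PyDESeq2 steps were tested on simulated data.

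Named genes were every called member, the 10 members with the largest and the 10 with the smallest mimic log2 fold change among those with non-overlapping fractions, 12 core genes, up to 5 extremes on each side of the ratios of mimic over control among members past 1 or -1 in both mimic libraries, and members with a 7-base seed match. The sequence of 1 seed match is not reported here. The members and lists were chosen with earlier results of these data known.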

Additional observations from a re-analysis of the deposited data

Results flagged for a closer look

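For 3 of the named members the mimic AGO2-IP lay above the mimic flow-through in each library. Their control ratios were negative with the TMM factors of the control comparison. CDC42 had a mimic log2 fold change of 1.05 and a control ratio of -1.23, CDC5L had 1.41 and -0.82, and CDC6 had 0.68 and -0.21. The difference was tested as an interaction in edgeR and called in none of them: it was 2.08, 2.03 and 0.69 on the log2 scale, with unadjusted p-values of 0.117, 0.109 and 0.51 and adjusted p-values of 1. On library size alone CDC42 had a control ratio of -0.33, while those of CDC5L (0.07) and CDC6 (0.69) turned positive, where the median of all genes was 0.91. With the GC trend removed the mimic value of CDC6 was 0.19, and that of CDC42, given above, was lower too. Across the members GC content had a Spearman's rho of -0.56 with the mimic value and of 0.13 with the control ratio (65 members). Whether this bears on the opposite signs was not tested.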

How the results depend on the processing

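The median mimic log2 fold change of the members stayed positive under every alternative run (0.18 to 0.59), and no member was called in the interaction under any of them. With the GC trend removed the member median was 0.20, against -0.05 for all genes. With the block as well it was 0.18, against -0.03. Without flow-through replicate 1 it was 0.59, against 0.08. The counts of mimic calls were 0 higher and 0 lower without any of these alternatives. They were 5 and 5 with the replicate block (4.6% and 5.08% of all genes). With the block and the GC trend removed they were 14 and 9 (14% and 12.7% of all genes). The GC trend removed alone gave 3 and 2 (3.32% and 2.36%), and PyDESeq2 gave 6 and 6 (6.45% and 8.26%). A summed count of at least 1000 gave 0 and 2 (2.56% lower, against 1.4% of all genes). The bias-adjusted quasi-likelihood, added after seeing the data, gave 0 and 1 (1.19% lower, against 0.734%). Leaving out 1 library gave 0 to 23 higher and 0 to 12 lower, the most without flow-through replicate 1, where 18.8% of all genes were called higher and 18.5% lower. Signs turned for members near 0. CDK1 was -0.087 with library size alone, -0.0651 at a count of 1000, -0.0456 on strand column 3, -0.46 with the GC trend removed and -0.45 with that and the block, and -0.70 to 1.66 with 1 library left out. CDK4 was -0.0852 at a count of 1000, -1.03 and -0.87 on strand columns 3 and 4, -0.0198 with the block, and -0.50 to 0.43 with 1 library left out. CCND1 was -0.00105 at a count of 1000 and -0.0743 to 0.39 with 1 library left out, and CDK10 was 0.0131 with the GC trend removed. In the control pair, library size alone gave 28 ratios of at least 1, 2 of at most -1 and a median of 0.74, and strand columns 3 and 4 each gave 7 of at least 1. For mimic over control AGO2-IP, the GC trend removed gave 11 of at least 1, library size alone 8 of at most -1 and a median of 0.24, strand column 3 a median of 0.57, and leaving out 1 library 5 to 8 of at most -1 and a median of 0.37 to 0.50. For the flow-through, library size alone gave 24 and 0 with a median of 0.68, the GC trend removed 3 of at least 1, and leaving out 1 library 6 to 18, 5 to 16 and a median of -0.0299 to 0.22. Shares of all genes were not tallied for these ratio counts, so the counts do not set the members apart from other genes. The cause of these shifts was not tested. At the depth of the control libraries 19 members had too few counts for a control ratio.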
